A study of Canis lupus familiaris with 16 samples.

Results

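Interferon-stimulated genes are the genes that cells switch on when interferon or viral nucleic acid is sensed. The set described here was given as 47 gene symbols, 35 for effectors and 12 for signalling factors, and its members are the genes of the deposited count tables that carry one of those symbols. Of the 47 symbols, 43 were found among 39543 gene symbols, namely 32 effectors and 11 signalling factors. SAMD9, IFIT1, XAF1 and RIGI had no entry under these symbols, and RIGI is the newer name of DDX58, which was found. IFI6 and CXCL10 were too low in count to be tested across the 12 libraries of the main comparisons, so 41 members were tested, 30 effectors and 11 signalling factors.

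Interferons bind cell surface receptors, of which IFNAR1 and IFNAR2 form the one for type I interferon, and receptor-bound kinases then activate STAT proteins. STAT2 joins IRF9 in a complex that binds DNA upstream of interferon-stimulated genes. The proteins made from those genes block viral entry, transcription and translation, or sense viral RNA, and some of them (IRF7, DDX58, IFIH1) feed back to raise interferon production. Tumour cells can carry a raised level of these genes without added interferon.

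The study measured RNA by sequencing in 4 primary cultured lines of canine hepatocellular carcinoma, named KU-cHCC-001, -002, -004 and -005. Each line received sorafenib at 30 µM, toceranib at 15 µM, or a vehicle, dimethyl sulfoxide (DMSO) or Dulbecco's phosphate-buffered saline (DPBS), for 24 h, and no interferon is named in the labels. The labels do not say which vehicle belongs to which drug, and DMSO is taken here as that of sorafenib. Sorafenib inhibits RAF kinases and several receptor tyrosine kinases, and toceranib is a veterinary inhibitor of receptor tyrosine kinases. Every line and treatment had 1 library, 16 in all, so the replicates of a treatment are the 4 lines. In the main comparisons a p-value sets a difference against the spread that remains after line and treatment are fitted. That spread includes how the lines differ in drug effect.

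Levels are given as CPM, the count scaled to a common library size with TMM factors, and the values of the 4 lines always stand in the order given above. Library totals ran from 12008366 to 21943572 counts. Bile duct and progenitor markers summed to 2680 CPM in KU-cHCC-001 and to 24200 to 31900 CPM in the other lines with DMSO, and hepatocyte markers to 31.5 to 91.2 CPM. The DPBS libraries went against their labels. A set of 614 genes that mark KU-cHCC-001 had a median of 3.94 in its DMSO library and -0.72 in its labelled DPBS library, on log2(CPM + 0.5). By label, the DPBS library of KU-cHCC-001 was close to that of KU-cHCC-004, and the one of KU-cHCC-002 to that of KU-cHCC-005, with median squared count differences of 2.54 and 2.38 times sampling noise against 23.4 to 28.6 for the other DPBS pairs. They were therefore left out of the main fit. Some toceranib libraries also held less of their line's markers, which were chosen on the DMSO and sorafenib libraries. In KU-cHCC-004, 21 such genes had a median of 2.80 with toceranib against 4.13 with DMSO, and in KU-cHCC-005, 27 had 2.41 against 3.51.

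**Figure D1:**
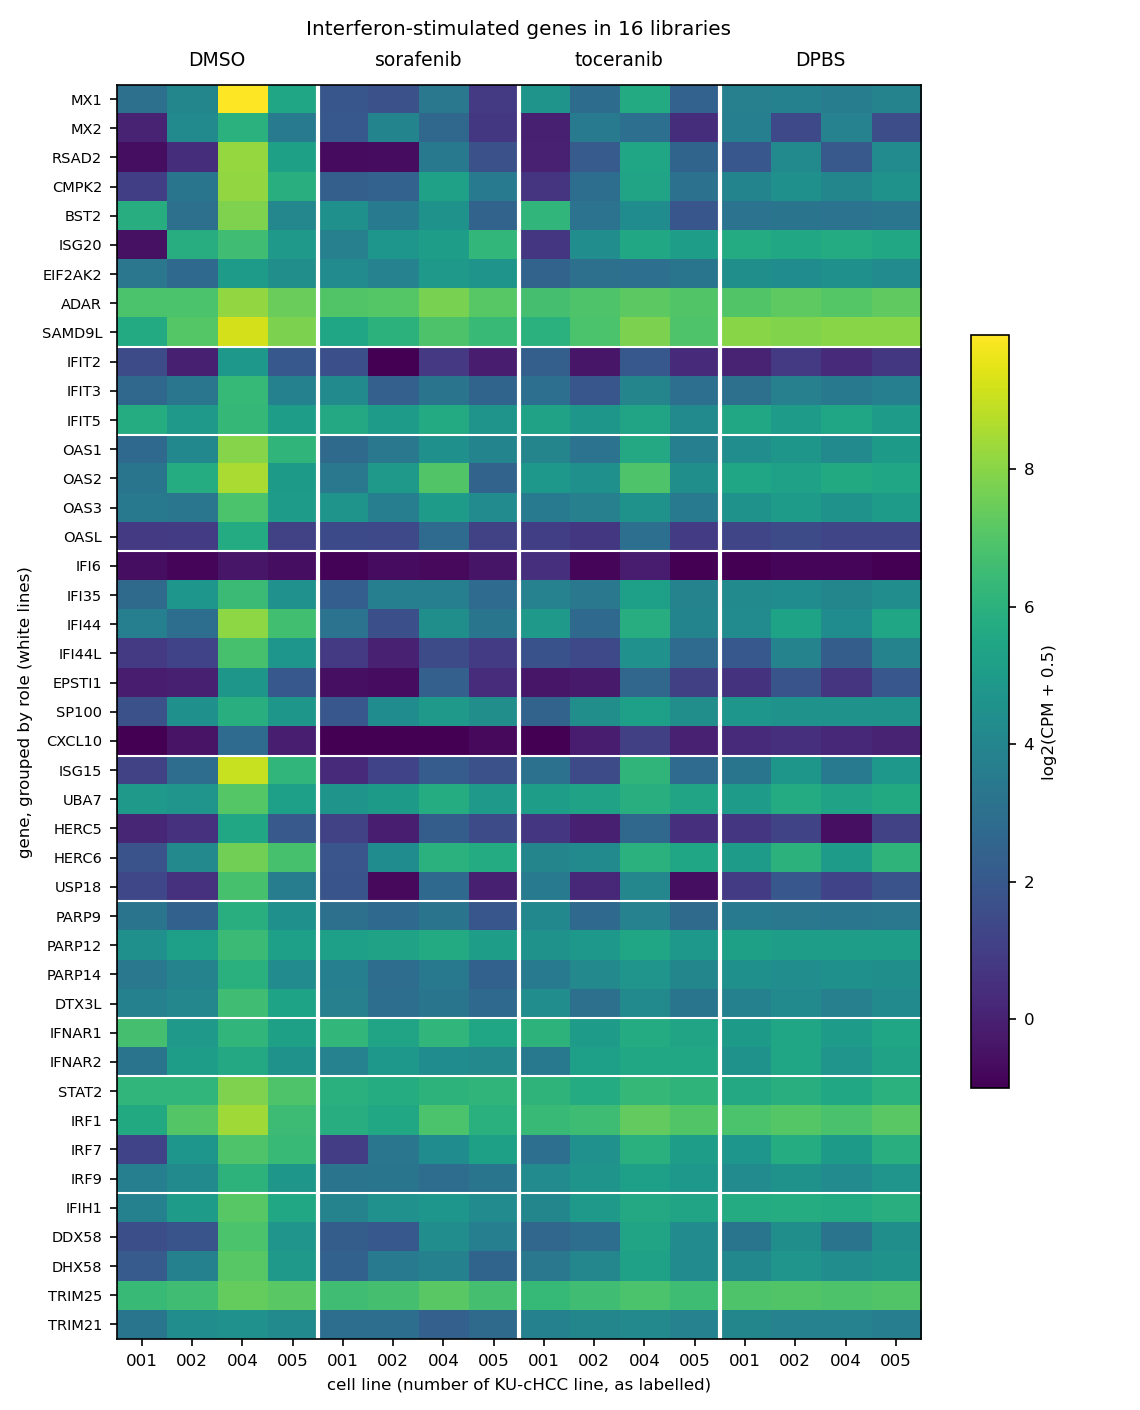
Level of the 43 interferon-stimulated genes, as log2(CPM + 0.5), in the 16 libraries (columns, by treatment and by cell line as labelled), with genes (rows) grouped by role. The DMSO library of KU-cHCC-004 is the brightest column, and the DPBS libraries alternate in several rows, such as RSAD2, following their close pairs.

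The first comparison asked how the lines differed at baseline. With DMSO, KU-cHCC-004 had the highest level of the 4 lines for 40 of the 41 tested members, against 19.7% of all tested genes. For the same 40 members its DMSO library was also the highest of the 12 DMSO, sorafenib and toceranib libraries, against 6% of all genes. The exception was the receptor subunit IFNAR1, at 104, 29.2, 74.3 and 36.4 CPM. The summed level of the 43 members with DMSO was 809, 1140, 7140 and 1970 CPM, so KU-cHCC-004 stood above KU-cHCC-005, which stood above KU-cHCC-002 and KU-cHCC-001. Each of these levels rests on 1 library, and the libraries are bulk RNA, in which fewer cells of a type and less RNA per cell cannot be told apart.

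In KU-cHCC-004 with DMSO, 15 of the 41 members were at least 4-fold above every other line, against 0.509% of all tested genes. They were the effectors MX1, RSAD2, CMPK2, BST2, IFIT2, IFIT3, OAS2, OASL, IFI44L, EPSTI1, ISG15, HERC5 and USP18, and the RNA sensors DDX58 and DHX58. OASL, an OAS relative that enhances RNA sensing, was at 1.31, 1.45, 52.1 and 1.66 CPM. HERC5, the main ligase that attaches ISG15 to proteins, was at 0.629, 0.964, 46.0 and 3.70 CPM. Both genes were low in 3 lines and high in 1, and the other lines lay within a few CPM of each other. As a ratio, HERC5 in KU-cHCC-005 still stood well above KU-cHCC-001 and KU-cHCC-002. DDX58, which encodes the RIG-I sensor of viral RNA, was at 2.57, 3.13, 114 and 25.4 CPM, so KU-cHCC-005 was intermediate.

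KU-cHCC-001 was the lowest line with DMSO for 30 of the 41 members, against 35.5% of all genes, and was at least 4-fold below every other line for 6 members, against 3% of all genes. RSAD2, whose product viperin makes a chain-terminating nucleotide, was at 0.157, 0.844, 292 and 36.5 CPM with DMSO. IRF7, the transcription factor that amplifies type I interferon production, was at 1.83, 26.6, 121 and 83.7 CPM. Its order of lines was the same as that of RSAD2, with the lowest level in KU-cHCC-001. BST2, a surface protein that tethers budding virus, did not follow this order, at 55.2, 7.65, 228 and 16.5 CPM.

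The lines were also compared over the DMSO, sorafenib and toceranib libraries, which adds replication at the cost of mixing drug states (edgeR, adjusted p under 0.05 over all genes). Any difference between lines was called for 33 of 41 members, against 42.1% of all genes. KU-cHCC-004 was higher than the mean of the other lines for 28 of 41 members and lower for 0, against 6.08% and 3.76% of all genes. The median difference of the members was 1.73 on the log2 scale, beside -0.02 over all genes. All 41 fitted differences were positive. The largest were those of RSAD2, at 5.38 ± 0.62 (log2 fold change ± SE), and of EPSTI1, named for epithelial-stromal interaction, at 4.16 ± 0.30, with edgeR adjusted p of 0.00038 and 1.2e-05.

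By role, 23 of 30 effectors and 5 of 11 signalling factors were higher in KU-cHCC-004, with medians of 1.94 and 0.82. The OAS family makes a second messenger from RNA that activates RNA decay, and all 4 of its members were higher, from OAS3 at 1.69 ± 0.40 to OASL at 3.42 ± 0.50. The IFIT family binds foreign RNA ends, and all 3 of its measured members were higher, with IFIT2 at 2.61 ± 0.59 (edgeR adjusted p 0.0165). Among the signalling factors DDX58 (2.87 ± 0.39), DHX58 (2.09 ± 0.45), IRF7 (1.94 ± 0.38), IFIH1 (1.31 ± 0.30) and IRF1 (1.28 ± 0.25) were higher. The receptors IFNAR1 (0.45 ± 0.17) and IFNAR2 (0.73 ± 0.28) did not pass, nor did STAT2 (0.63 ± 0.22) and IRF9 (0.82 ± 0.32), with edgeR adjusted p from 0.0917 to 0.136.

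Fewer members were called higher in KU-cHCC-004 when DMSO libraries were left out, and fewer genes at large. Without its DMSO library 9 were (CMPK2, DDX58, EPSTI1, HERC5, OAS2, OASL, RSAD2, SAMD9L and SP100), while the share of all genes called in either direction went from 9.83% to 2.66%. Without any DMSO library 12 were, with 1.85% of all genes called. Without the toceranib libraries 30 were called higher, with 17% of all genes called, and without the sorafenib libraries 23, with 4.33%. With the 4 DPBS libraries added under their labels, 0 members were called, beside 0% of all genes. Under sorafenib KU-cHCC-004 was still the highest line for 29 of 41 members and under toceranib for 33, each against 19.5% of all genes.

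**Figure D2:**
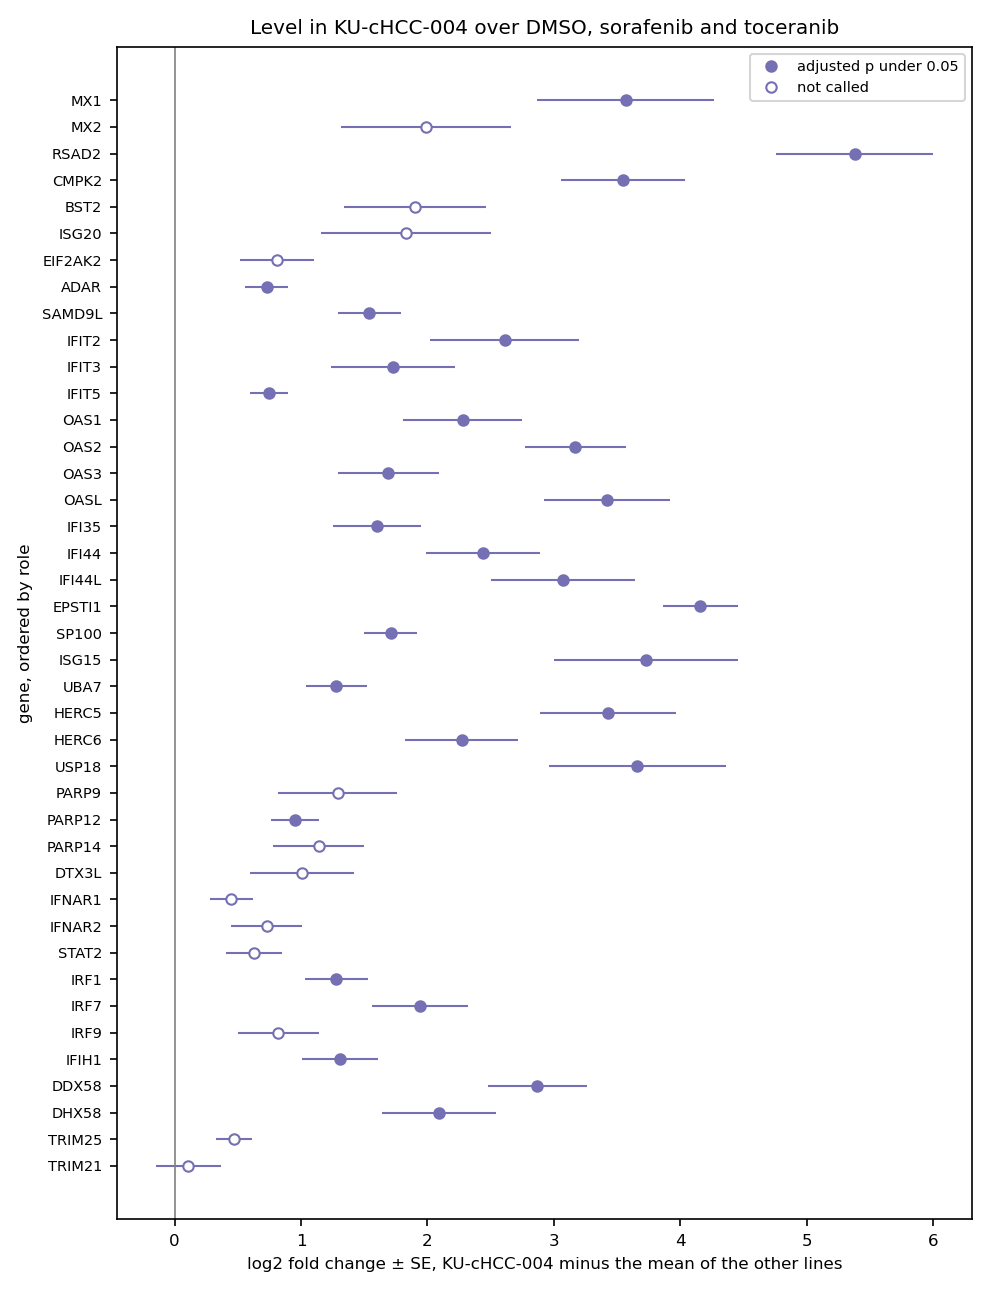
Fitted log2 fold change of KU-cHCC-004 minus the mean of the other lines (x axis, with SE) for 41 interferon-stimulated genes (y axis), over the DMSO, sorafenib and toceranib libraries. Filled points have an edgeR adjusted p under 0.05; all 41 points lie to the right of 0, and 28 are filled.

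The other lines gave smaller or mixed differences. KU-cHCC-001 was lower than the mean of the others for 17 members and higher for 4, against 19.5% and 24.3% of all genes. Its called members ran from RSAD2 (-5.31 ± 1.01) and ISG20, an exonuclease of RNA (-3.65 ± 0.91), to IFNAR1 (0.89 ± 0.17), BST2 (1.71 ± 0.55) and IFIT2 (1.95 ± 0.64). The 2 receptor subunits differed in opposite directions in this line, since IFNAR2 was lower (-1.46 ± 0.32, edgeR adjusted p 0.00356). In KU-cHCC-002, 8 members were lower and 0 higher, against 6.27% and 9% of all genes. KU-cHCC-005 had IRF7 higher (1.78 ± 0.39) and BST2 (-2.22 ± 0.65) and IFIT5 (-0.76 ± 0.17) lower, 1 and 2 of 41 members against 6.9% and 5.02% of all genes.

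Markers of other cell types were read in the same libraries. With DMSO the 18 leukocyte markers summed to 17.4, 43.1, 87.4 and 90.3 CPM, with 1 marker at 5 CPM or more in each library. That marker was CD14 (11.6, 33.1, 80.9 and 84.4 CPM), while PTPRC, the pan-leukocyte phosphatase, was at 0, 0, 0.0566 and 0.442 CPM and the T cell gene CD3E had no count. The summed level in KU-cHCC-004 was thus close to that in KU-cHCC-005. Of the plasmacytoid dendritic cell markers only TLR9 passed 5 CPM, and TCF4 and GZMB had no count with DMSO. The 12 stromal markers summed to 6800, 2110, 1550 and 1500 CPM, most of it VIM, an intermediate filament gene that cultured tumour cells also express, and 2 or 3 of them reached 5 CPM. TAGLN, an actin-binding protein of smooth muscle, was at 2.46, 34.7, 210 and 18.6 CPM, the highest in KU-cHCC-004, and at 3.79, 13.9, 79.2 and 20.8 CPM with sorafenib. It was higher in KU-cHCC-004 than in the other lines (2.89 ± 0.64, edgeR adjusted p 0.0159), while the collagen gene COL3A1 and LUM and DCN had no count with DMSO. The 9 endothelial markers summed to 134, 15.7, 8.37 and 8.68 CPM, of which EGFL7 made up 128 CPM in KU-cHCC-001. The part of these differences in the line result was not tested.

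Most of the 7 interferon ligand genes found had few or no counts. IFNB1, IFNG, IFNL3 and IFNA7 had 0 counts in all 16 libraries, where 3 counts, the limit that a count of 0 allows, are worth 0.127 to 0.254 CPM. IFNL1 had 1 count in 1 library, and IFNK had 59 counts over 13 libraries and at most 0.667 CPM. IFNE, an epithelial type I interferon, was the only one of the 7 ligands found that could be tested, at 0.996, 0.844, 6.39 and 4.37 CPM with DMSO. It was higher in KU-cHCC-004 than in the other lines (1.88 ± 0.43, edgeR adjusted p 0.0189).

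The second comparison asked what sorafenib did relative to its vehicle. With sorafenib 18 of the 41 members fell and 0 rose, against 10.1% of all tested genes lower and 9.59% higher (edgeR with cell line as a block, adjusted p under 0.05). The median log2 fold change of the members was -1.32, beside -0.02 for all genes. The share called was similar for effectors, 13 of 30 with a median of -1.35, and for signalling factors, 5 of 11 with a median of -0.92. Of the members, 12 were lower in all 4 lines, against 24.5% of all genes, and 4 (DTX3L, IRF9, STAT2 and TRIM21) had no overlap between the DMSO and sorafenib libraries, against 5.44% of all genes.

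Among the signalling factors, neither receptor subunit was called. IFNAR1 was at 104, 29.2, 74.3 and 36.4 CPM with DMSO and at 76.0, 42.0, 74.2 and 42.7 CPM with sorafenib. Its log2 fold change was 0.04 with a 95% interval of -0.37 to 0.45, and the libraries overlapped. IFNAR2 had a log2 fold change of -0.33, with an interval of -1.02 to 0.36.

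All 4 transcription factors of the set fell. IRF9, the DNA-binding partner of STAT2, stood at 12.7, 17.6, 66.5 and 27.6 CPM with DMSO and at 8.82, 9.12, 6.95 and 9.01 CPM with sorafenib. The sorafenib libraries lay within a narrow band below every DMSO library, and IRF9 fell by 1.61 ± 0.36 on the log2 scale (edgeR adjusted p 0.0125). STAT2 was at 73.4, 73.2, 225 and 122 CPM with DMSO and at 60.8, 53.6, 66.4 and 70.9 CPM with sorafenib. It fell by 0.86 ± 0.24 (edgeR adjusted p 0.0277), again to similar levels in the 4 lines and with no overlap.

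IRF7 kept its order of lines less closely, with 1.83, 26.6, 121 and 83.7 CPM with DMSO and 1.5, 9.27, 19.8 and 37.3 CPM with sorafenib. It was lower in each line and fell by 1.55 ± 0.45 (edgeR adjusted p 0.0342), although the groups overlapped. KU-cHCC-001 was low in both, and the sorafenib library of KU-cHCC-005 lay above the DMSO library of KU-cHCC-002. IRF1, an activator of type I and type II interferon targets, was at 49.3, 129, 335 and 89.5 CPM with DMSO and at 56.1, 46.2, 115 and 60.4 CPM with sorafenib. It fell by 0.92 ± 0.28 (edgeR adjusted p 0.0433) and was lower in 3 of 4 lines.

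Of the sensors and ubiquitin ligases, 1 of 5 passed. TRIM21, the cytosolic antibody receptor and ubiquitin ligase, was at 9.12, 20.1, 22.7 and 18.5 CPM with DMSO and at 7.19, 7.27, 4.56 and 6.47 CPM with sorafenib, without overlap. It fell by 1.43 ± 0.28 (edgeR adjusted p 0.00751). The RNA sensors IFIH1 (-1.04), DDX58 (-0.87) and DHX58 (-1.60) had edgeR adjusted p of 0.0527, 0.211 and 0.0578. TRIM25, the ligase that activates RIG-I, had a log2 fold change of -0.10 with a 95% interval of -0.44 to 0.24.

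Of the antiviral effectors, 3 of 9 passed. MX1, a GTPase that blocks viral nucleocapsids, was at 7.81, 15.9, 985 and 42.9 CPM with DMSO and at 3.26, 2.79, 9.82 and 1.29 CPM with sorafenib. It was lower in each line and fell by 4.45 ± 0.92 (edgeR adjusted p 0.00862), yet its sorafenib level in KU-cHCC-004 exceeded the DMSO level in KU-cHCC-001. RSAD2 went from 0.157, 0.844, 292 and 36.5 CPM to 0.132, 0.149, 10.3 and 2.74 CPM and fell by 3.75 ± 0.83 (edgeR adjusted p 0.0116). In KU-cHCC-001 it was near the limit of detection under both treatments. SAMD9L, a restriction factor of poxviruses, went from 51.8, 133, 595 and 221 CPM to 43.1, 64.3, 117 and 84.3 CPM and fell by 1.33 ± 0.28 (edgeR adjusted p 0.0102).

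The other 6 antiviral effectors were not called. MX2 (-1.38), CMPK2, a mitochondrial nucleotide kinase that neighbours RSAD2 in the RefSeq gene order (-1.44), and BST2 (-1.67) had negative fitted values on the log2 scale with edgeR adjusted p of 0.0929 to 0.277. ADAR, which edits double-stranded RNA, was at -0.15 with a 95% interval of -0.55 to 0.25. EIF2AK2 and ISG20 had positive fitted values. EIF2AK2, the kinase PKR that stops translation on sensing double-stranded RNA, was at 9.70, 6.09, 32.5 and 20.8 CPM with DMSO and at 18.9, 13.9, 29.3 and 24.7 CPM with sorafenib, higher in 3 of 4 lines (0.47 ± 0.32, edgeR adjusted p 0.326). ISG20 was at 0.210, 56.1, 95 and 29.3 CPM with DMSO and at 13.0, 26.3, 34.7 and 76.5 CPM with sorafenib, so 2 lines were higher and 2 lower.

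In the ISG15 system, 2 of 5 members passed. ISG15, the ubiquitin-like modifier itself, went from 1.68, 6.99, 513 and 74.0 CPM to 0.749, 1.79, 4.03 and 2.74 CPM and fell by 4.25 ± 0.99 (edgeR adjusted p 0.0142). USP18, which removes ISG15 and dampens receptor signalling, went from 2.04, 0.964, 107 and 11.9 CPM to 3.04, 0.0996, 6.21 and 0.466 CPM and fell by 3.44 ± 0.96 (edgeR adjusted p 0.029). ISG15 was lower in 4 of 4 lines and USP18 in 3. The activating enzyme UBA7 (-0.45) and the ligases HERC5 (-1.18) and HERC6 (-0.78) were not called, with edgeR adjusted p of 0.225 to 0.310.

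In the IFIT and OAS families, 1 member of each passed. IFIT2 went from 2.41, 0.482, 27.7 and 3.48 CPM to 2.64, 0, 1.27 and 0.414 CPM and fell by 2.85 ± 0.75 (edgeR adjusted p 0.0233). OAS1 went from 6.18, 16.6, 250 and 71.9 CPM to 6.35, 9.91, 21.8 and 15.0 CPM and fell by 1.88 ± 0.57 (edgeR adjusted p 0.0406). In KU-cHCC-001 both genes were at similar levels under the 2 treatments. IFIT3 (-1.08), IFIT5 (-0.31), OAS2 (-1.32), OAS3 (-0.37) and OASL (-0.58) were not called, with edgeR adjusted p of 0.0724 to 0.607.

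Of the other interferon-induced genes, 4 of 5 tested passed. IFI44L went from 1.31, 1.81, 109 and 26.5 CPM to 1.32, 0.498, 2.39 and 1.35 CPM and fell by 3.33 ± 0.77 (edgeR adjusted p 0.0138). Its neighbour IFI44 went from 12.8, 7.23, 270 and 98.6 CPM to 8.6, 2.69, 21.2 and 9.16 CPM and fell by 2.61 ± 0.57 (edgeR adjusted p 0.0109). IFI44 was lower in all 4 lines, and IFI44L in all but KU-cHCC-001. EPSTI1 went from 0.419, 0.482, 27.5 and 3.54 CPM to 0.176, 0.149, 4.56 and 0.828 CPM and fell by 2.07 ± 0.39 (edgeR adjusted p 0.00574). IFI35, which partners with NMI, went from 6.29, 26.6, 87.0 and 22.6 CPM to 4.32, 12.6, 12.8 and 6.52 CPM and fell by 1.62 ± 0.41 (edgeR adjusted p 0.0202). Both were lower in each line, but EPSTI1 did not exceed 0.482 CPM in KU-cHCC-001 or KU-cHCC-002. Its differences there rest on few counts. SP100, a nuclear body protein, had a log2 fold change of -0.41 with a 95% interval of -0.95 to 0.12.

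Among the ADP-ribosylation genes, 2 of 4 passed. DTX3L, a ubiquitin ligase that pairs with PARP9, went from 13.6, 16.3, 95.1 and 40.6 CPM to 13.0, 7.32, 9.18 and 6.26 CPM, with no overlap, and fell by 1.99 ± 0.48 (edgeR adjusted p 0.0166). PARP14 went from 9.85, 14.3, 61.0 and 19.0 CPM to 12.9, 7.03, 10.1 and 4.76 CPM and fell by 1.31 ± 0.42 (edgeR adjusted p 0.0498). PARP14 sat at the threshold and was higher with sorafenib in KU-cHCC-001. PARP9 (-1.56) and PARP12 (-0.02) had edgeR adjusted p of 0.0711 and 0.956. Of the 2 members that were not tested, CXCL10, a T cell attracting chemokine, was highest with DMSO in KU-cHCC-004 at 6.50 CPM, and IFI6 did not exceed 0.887 CPM in any library.

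**Figure D3:**
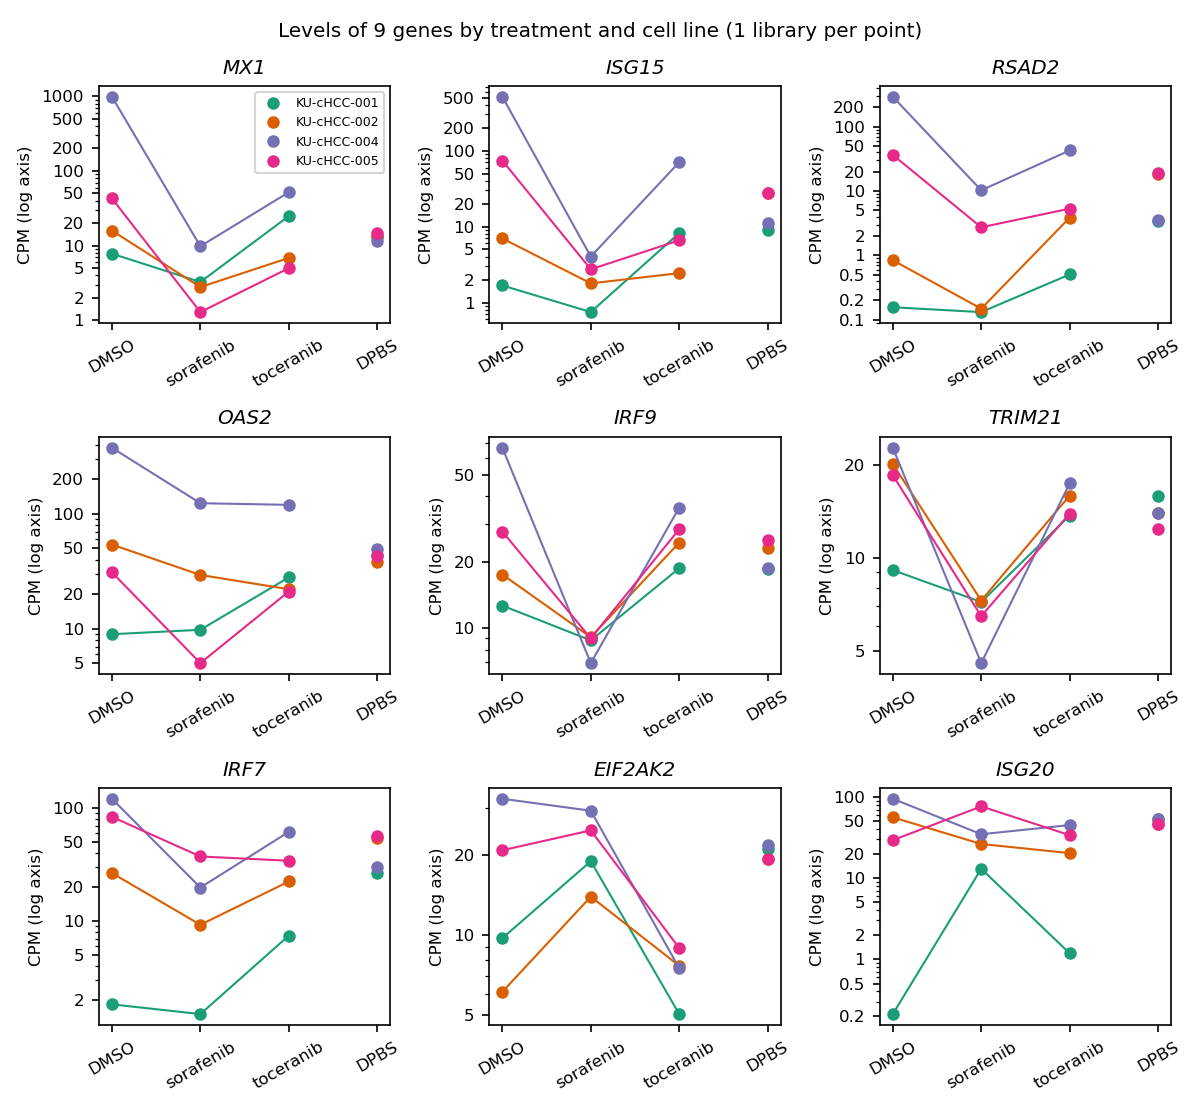
Level of 9 members in CPM (log axis) by treatment (x axis), with 1 point per library, coloured by cell line, and lines that join the DMSO, sorafenib and toceranib libraries of a cell line. With DMSO, MX1, ISG15 and RSAD2 are far higher in KU-cHCC-004 than in the other lines, IRF9 and TRIM21 are lowest with sorafenib in each line, and EIF2AK2 is lower with toceranib than with sorafenib in each line.

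The size of the difference varied by line. The median difference of the 41 members between sorafenib and DMSO, on log2(CPM + 0.5), was 0.11, -0.63, -2.53 and -1.39 in the 4 lines. A level at least 2-fold lower was found for 2, 13, 35 and 25 of the 41 members, against 4.75%, 8%, 9.78% and 7.1% of all genes in the same libraries. A level at least 2-fold higher was found for 6, 1, 0 and 1, against 4.89%, 6.79%, 7.3% and 6.53%. The order of the lines by drop was that of their DMSO levels, whose medians were 3.20, 4.10, 6.77 and 4.98 on the same scale. The DMSO libraries enter both quantities, so this is no separate measurement. With sorafenib the medians were 3.19, 3.56, 4.38 and 3.27, a narrower range than with DMSO.

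Effectors and signalling factors were also read apart within a line. In KU-cHCC-004 the effector differences had a median of -2.80 and ran from -6.82 for ISG15 to -0.15 for EIF2AK2, and the signalling differences had a median of -2.19 and ran from -3.27 for DHX58 to 0 for IFNAR1. In KU-cHCC-001 no signalling factor was 2-fold lower or higher, and 6 effectors were at least 2-fold higher, ISG20 by 4.25 and MX2, CMPK2, IFIT3, OAS3 and HERC5 by less. With 1 library per line and treatment, differences between lines in the drug effect could not be tested in this way.

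The sorafenib count depended on which lines entered. Without KU-cHCC-001, 27 members were lower, without KU-cHCC-002 6, and without KU-cHCC-004 or KU-cHCC-005 0. The share of all genes called in either direction moved in the same way, from 19.6% to 26.4%, 5.9%, 3.84% and 5.08%. Leaving out only the DMSO library of KU-cHCC-004, an alternative chosen after seeing the data, kept 5 calls, EPSTI1, IRF9, MX1, SAMD9L and TRIM21, with 9.13% of all genes called. Without the line as a block IRF9 and TRIM21 were called, with 3.11% of all genes.

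Some bile duct and progenitor markers differed with sorafenib too. Their summed level was 2680, 31900, 24200 and 24700 CPM with DMSO and 1880, 18100, 15500 and 16900 CPM with sorafenib, lower in 4 of 4 lines, and most of that sum is keratin RNA. Of these markers, CLDN4, a tight junction protein, and KRT8, an epithelial keratin, fell. EPCAM (0.23 ± 0.19) and SOX9 (1.06 ± 0.53) had positive fitted values on the log2 scale and were not called, and the median of the markers in KU-cHCC-005 was 8.4 with DMSO and 8.61 with sorafenib on log2(CPM + 0.5). The part of this difference in the result was not tested.

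**Figure D4:**
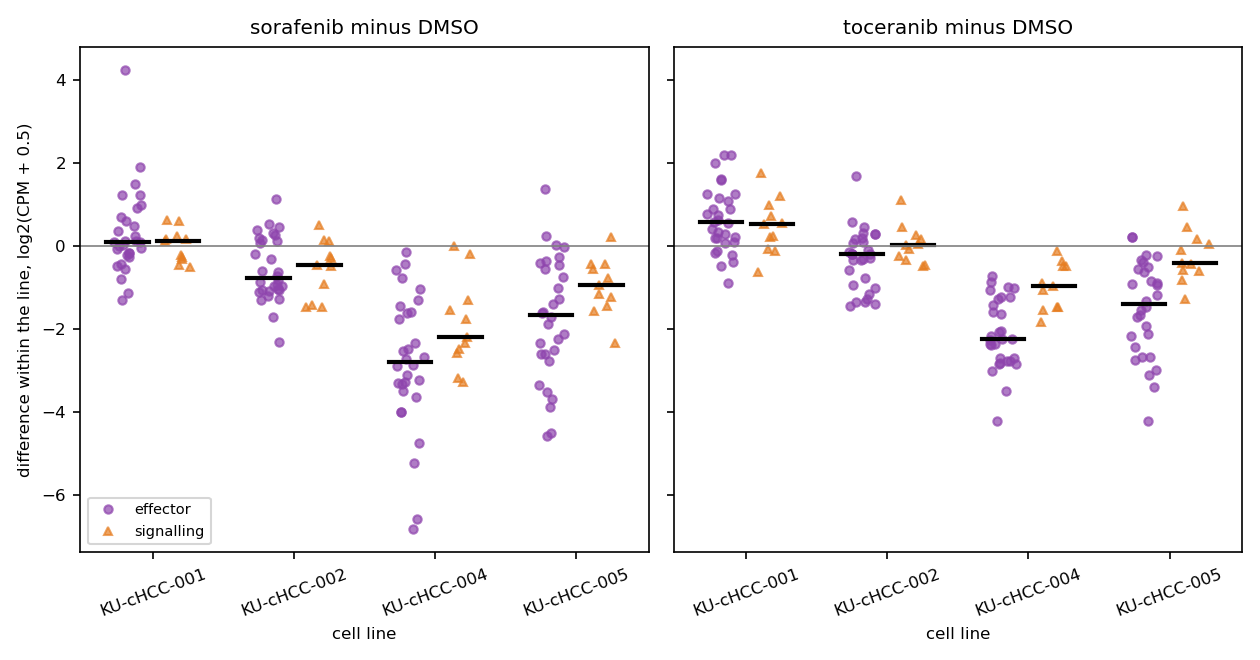
Difference of each of the 41 tested members within a line, on log2(CPM + 0.5), for sorafenib minus DMSO (left) and toceranib minus DMSO (right), with effectors as circles, signalling factors as triangles and their medians as black bars. Both panels share the DMSO libraries; KU-cHCC-004 and KU-cHCC-005 lie mostly below 0, and KU-cHCC-001 around or above it.

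The third comparison set toceranib against DMSO of the same line. Where DMSO was not the vehicle of toceranib, drug and vehicle cannot be told apart, and the DMSO libraries are those of the sorafenib comparison. No member passed: 0 of 41 were called lower and 0 higher by edgeR, against 3.15% and 4.31% of all genes. At an unadjusted p under 0.05, 14 members were lower and 0 higher, against 12.7% and 14.9% of all genes. DESeq2 called 6 lower, with 15.6% of all genes called in either direction. The median log2 fold change was -0.70 for the members, -1.11 for effectors and -0.21 for signalling factors, beside -0.01 for all genes.

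The values nearest to the threshold were those of IFIT5 (-0.61, 95% interval -0.99 to -0.24), EPSTI1 (-1.28, -2.11 to -0.45) and STAT2 (-0.76, -1.28 to -0.25), with edgeR adjusted p of 0.053, 0.0613 and 0.0681. These 3 and CMPK2 and MX2 were lower in 4 of 4 lines, against 14.7% of all genes. For 0 of 41 members did the toceranib libraries all lie below the DMSO libraries, against 3.52% of all genes. MX1 stood at 24.9, 6.85, 51.9 and 5.00 CPM with toceranib, so it was above its DMSO level in KU-cHCC-001 and below it in the other lines. ISG15 had the same pattern, at 8.23, 2.44, 70.6 and 6.61 CPM. IRF9 was at 18.8, 24.6, 35.5 and 28.3 CPM with toceranib, within the range of the DMSO libraries, and its log2 fold change was -0.05 ± 0.35.

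By line, the median difference of the members was 0.56, -0.20, -1.64 and -0.88. At least 2-fold lower were 0, 7, 31 and 18 of 41 members, against 4.79%, 8.07%, 5.25% and 6.32% of all genes, and at least 2-fold higher were 11, 2, 0 and 0, against 6.9%, 12.4%, 7.12% and 11.8%. In KU-cHCC-001 the members with the highest difference were USP18 (2.21) among the effectors and IRF7 (1.76) among the signalling factors. In KU-cHCC-004 all 41 members were lower, from MX1 (-4.23) to IFNAR2 (-0.11). Leukocyte markers summed to 339 CPM in KU-cHCC-001 with toceranib, of which CD74, an antigen presentation gene, made up 321 CPM, against 17.4 CPM with DMSO. PTPRC and CD3E had no count in that toceranib library. Without KU-cHCC-001, 16 members were called lower, and the share of all genes called in either direction went from 7.46% to 20.5%.

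Stromal markers differed in the same libraries. Of 12 such markers, 2 were at 5 CPM or more in KU-cHCC-004 and KU-cHCC-005 with DMSO, and 6 and 8 were with toceranib. The collagen gene COL1A1 was at 0.0566 and 0 CPM in these lines with DMSO and at 16 and 105 CPM with toceranib. The part of this difference in the result was not tested.

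**Figure D5:**
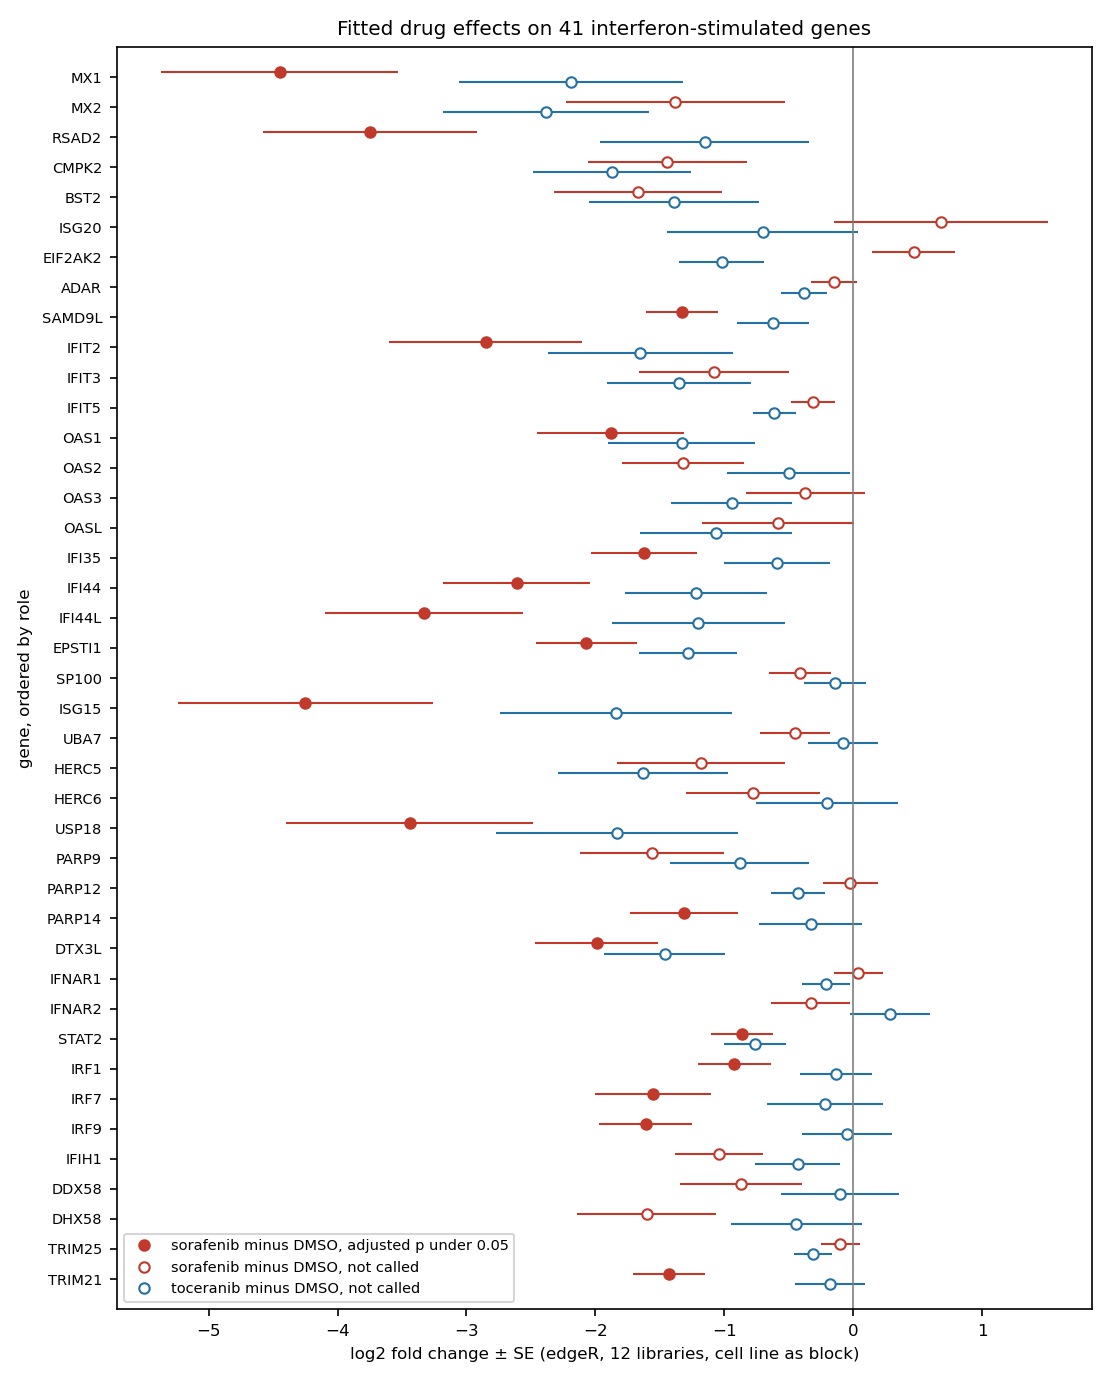
Fitted log2 fold change with SE for sorafenib minus DMSO (red) and toceranib minus DMSO (blue), which share the DMSO libraries, for 41 members ordered by role. Filled points have an edgeR adjusted p under 0.05; 18 red points and 0 blue points are filled, and the transcription factors IRF1, IRF7 and IRF9 lie left of 0 for sorafenib and near 0 for toceranib.

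A direct comparison of the 2 drugs called 8 of 41 members, against 38.4% of all genes. With sorafenib 7 were lower and 1 was higher than with toceranib, against 20.1% and 18.3% of all genes, so neither share stood above that of genes at large. The drugs differ in dose as well, and perhaps in vehicle. The factors were IRF9 (-1.56 ± 0.35), TRIM21 (-1.25 ± 0.28), IRF7 (-1.33 ± 0.45) and IRF1 (-0.79 ± 0.28), 4 of 11 signalling factors, and the effectors were RSAD2 (-2.60 ± 0.86), MX1 (-2.25 ± 0.82), IFI44L (-2.13 ± 0.72) and EIF2AK2 (1.5 ± 0.33), 4 of 30. The edgeR adjusted p-values ran from 0.00536 to 0.0498.

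IRF9, TRIM21 and EIF2AK2 were called under each alternative run for this comparison. With toceranib, TRIM21 was at 13.7, 15.9, 17.4 and 13.9 CPM, and each of these values lay above every sorafenib library, as did those of IRF9, 2 of 41 members against 9.81% of all genes. EIF2AK2 was at 5.02, 7.63, 7.47 and 8.90 CPM with toceranib. Without KU-cHCC-002, KU-cHCC-004 or KU-cHCC-005 the lower count was 3, 2 and 4, and without KU-cHCC-001 it was 9. In the same order, 25.2%, 19.4%, 20.2% and 45.6% of all genes were called in either direction. STAT2, in contrast to IRF9, had a difference of -0.10 ± 0.23 between the drugs, with levels of 69.4, 52.7, 77.2 and 68.9 CPM with toceranib.

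With DPBS, the summed level of the 43 members was 1360, 1590, 1370 and 1650 CPM, in the order of the labels, and so followed the close pairs described above. RSAD2 was at 3.38, 18.3, 3.61 and 18.9 CPM. The high level of the KU-cHCC-004 DMSO library was not seen in the DPBS library of that label, where MX1 was at 11.5 CPM and ISG15 at 11.1 CPM. Toceranib minus DPBS, as labelled, gave 0 of 42 members lower and 0 higher by edgeR, against 0% of all genes. At an unadjusted p under 0.05, 4 members were lower (EIF2AK2, SAMD9L, IFIH1 and TRIM25), against 6.94% of all genes. DESeq2 called 1 lower, with 1.91% of all genes called in either direction.

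The rest of the pathway was read from lists of genes outside the set. With sorafenib, the further transcription factors IRF3, which induces interferon genes after sensing (-0.89 ± 0.21), and BATF2 (-1.23 ± 0.36) were lower. Of 7 other receptor and kinase genes 1 rose, JAK2 (0.90 ± 0.20, edgeR adjusted p 0.0125), and 0 of 9 negative regulators were called. Among 9 tested sensing adaptors MYD88, the Toll-like receptor adaptor, fell (-0.92 ± 0.23) and TRAF3 rose (1.17 ± 0.22). These few calls stand beside 10.1% of all tested genes lower and 9.59% higher, 19.6% in either direction.

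A list of 72 further interferon-stimulated genes, 47 of them tested, had 5 lower and 1 higher with sorafenib and a median of -0.23, beside the 10.1% lower and 9.59% higher of all genes. In KU-cHCC-004, 13 of the 47 were higher and 2 lower, beside 6.08% and 3.76% of all genes. GBP1, a guanylate-binding GTPase, was at 3.14, 1.87, 197 and 0.498 CPM with DMSO and was higher in KU-cHCC-004 by 5.56 ± 0.59 (edgeR adjusted p 0.000228). GBP5 (5.10 ± 0.60) and IDO1, the tryptophan-degrading enzyme (4.85 ± 0.69), were higher too. With toceranib 3 of the 47 were lower and 1 higher than with DMSO, beside 3.15% and 4.31% of all genes, DDX60, an RNA helicase, by the most (-4.56 ± 0.97, edgeR adjusted p 0.0269).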

How the data were processed

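Each file holds raw read counts by gene symbol, whole numbers as the authors deposited them, per the file headers. The submitters' processing notes name TopHat. Its version, the counter, the strand setting, the genome build and the annotation were not given in the sources used here, and coordinates are therefore left out. The kit keeps strand, per the labels' protocols. Counts of near copies, such as members of the OAS and IFIT families, are uncertain. Of 39954 entries per file, 500 shared 89 symbols and were summed, no member among them. All 43 members matched the RefSeq gene table of UU_Cfam_GSD_1.0, used for names and gene order.

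Comparisons used edgeR 4.0.16 in R 4.3.3, with filterByExpr by treatment, TMM and robust quasi-likelihood fits of treatment and cell line on the 12 DMSO, sorafenib and toceranib libraries (14938 genes, 6 residual degrees of freedom), adjusted by Benjamini-Hochberg over all genes. Toceranib minus DPBS used 16 libraries (15515 genes). DESeq2 1.42.0 was an alternative, and scripts were tested on simulated data. Library totals ran from 12008366 (toceranib, KU-cHCC-005) to 21943572 (toceranib, KU-cHCC-001), and limits from counts cover counting error only. A replicate number marks a cell line and so pairs libraries. Deviations from treatment means correlated within a line at 0.753 to 0.892 between DMSO and sorafenib, at 0.56 to 0.797 between DMSO and toceranib, and at -0.455 to 0.29 between DMSO and DPBS. Values per library are printed for members called between treatments and for the more abundant receptor. OASL, HERC5, DDX58, ISG20 and BST2 were singled out after their values were seen. The members and lists were chosen with earlier results of these data known.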

Additional observations from a re-analysis of the deposited data

Results flagged for a closer look

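Among 164 groups of 4 libraries of 1 member and treatment, 6 held a library far from the other 3, and chance gives about 1 in 20. In KU-cHCC-004 these were OASL high with DMSO (52.1 CPM) and with toceranib (7.58 CPM), OAS2 high with toceranib (120 CPM) and IRF9 low with sorafenib (6.95 CPM). The others were IFNAR2, low in KU-cHCC-001 with toceranib (10.2 CPM), and OASL, high in the DPBS library labelled KU-cHCC-002 (2.31 CPM).

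Flagged were 8 members for which sorafenib and DMSO differed in one direction in 1 line and in the opposite direction in the other 3. They are not all members with such a pattern, which USP18 and EIF2AK2, for example, also had. These differences were not tested, since each line had 1 library per treatment. MX2 (1.90 on log2(CPM + 0.5)), IFIT3 (1.51), CMPK2 (1.24), IFNAR2 (0.64), PARP14 (0.37) and IRF1 (0.18) were higher with sorafenib in KU-cHCC-001. BST2 (0.53) and UBA7 (0.26) were higher in KU-cHCC-002.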

How the results depend on the processing

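No member called between treatments or lines reversed its direction under any alternative run, and 0 members were called higher with sorafenib than with DMSO under each. Leaving out each line in turn gave 0 to 27 members lower with sorafenib than with DMSO, 0 to 16 lower with toceranib than with DMSO, and 2 to 9 lower with sorafenib than with toceranib. The shares of all genes called in either direction ran from 3.84% to 26.4%, 0.00649% to 20.5% and 19.4% to 45.6%. Without the filter on low counts these counts of members were 8, 3 and 3, beside 9.42%, 5.11% and 21.2% of all genes. With DESeq2 they were 22, 6 and 13, beside 25%, 15.6% and 42.3%. With no replicate block they were 2, 0 and 2, beside 3.11%, 0% and 14.5%. With all 16 libraries they were 8, 0 and 2, beside 13.1%, 3.59% and 30.7%. Leaving out the DMSO library of KU-cHCC-004, which was chosen after seeing the data, left 5 lower with sorafenib, beside 9.13% of all genes. For toceranib minus DPBS, DESeq2 called 1 lower, beside 1.91% of all genes.

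For lines, 33 members differed, 4 with all 16 libraries and 18 without the DMSO libraries, beside 42.1%, 10.9% and 15.3% of all genes. In KU-cHCC-004, 28 were higher, 0 with all 16 libraries, 12 without DMSO, 9 without its own DMSO library and 30 without toceranib. The shares of all genes called in either direction were 9.83%, 0%, 1.85%, 2.66% and 17%. In KU-cHCC-001, 17 were lower, 7 with all 16 libraries and 10 without DMSO. There 4 were higher, 1 without the filter, with all 16 libraries or without sorafenib, and 2 without toceranib. All-gene shares were 43.8%, 27.1% with all 16 libraries, 23.6% without DMSO, 27.5% without the filter, 26.2% without sorafenib and 52.8% without toceranib. In KU-cHCC-002, 8 were lower, 3 without the filter, 0 with all 16 libraries, 2 without DMSO and 1 without sorafenib. There 1 was higher without DMSO. All-gene shares were 15.3%, 7.99% without the filter, 0% with all 16 libraries, 3.44% without DMSO and 4.61% without sorafenib. In KU-cHCC-005, 2 were lower, 1 without the filter, without DMSO or without the KU-cHCC-004 DMSO library, and 0 with all 16 libraries or without sorafenib. There 1 was higher, 2 with DESeq2, 3 without toceranib or without the KU-cHCC-004 DMSO library. None was without the filter, with all 16 libraries, without DMSO or without sorafenib. All-gene shares were 11.9%, 6.59% without the filter, 17.3% with DESeq2, 21.9% without toceranib and 8.36% without the KU-cHCC-004 DMSO library. They were 0.954% with all 16 libraries, 2.35% without DMSO and 3.19% without sorafenib. The cause was not tested. Without the filter the median of all genes for sorafenib minus toceranib moved to -0.21. The search of promoter sequences for interferon response motifs was not run. With 1 library per line and treatment, a line's own drug effect has counting error only.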
